A study of Homo sapiens with 33 samples.

Results

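Transcripts of 10 genes of transforming growth factor beta (TGF-beta) signalling were followed in head and neck squamous cell carcinoma (HNSCC) cell lines under cetuximab. The 10 are the ligands TGFB1, TGFB2 and TGFB3, the receptors TGFBR1, TGFBR2 and TGFBR3, the target genes TGFBI, SMAD7 and SKIL, and the matrix protein LTBP2. They were taken by symbol from a table of 56470 gene symbols, and all 10 passed the filter on low counts in each line. The established HNSCC lines SCC1, SCC6 and SCC25 were given 100 nM cetuximab (CTX), an antibody against the epidermal growth factor receptor (EGFR), or PBS as the untreated control. Medium with cetuximab or PBS was renewed daily, and polyA RNA of bulk cultures was sequenced on each day. PBS libraries covered days 0 to 5 and CTX libraries days 1 to 5 of each line, 33 libraries in all, with 1 library per line, treatment and day. In SCC6, the labels give day 2 to a pair of CTX libraries, called 2a and 2b here, and day 1 to none. The compared groups were thus SCC1, SCC6 and SCC25 with PBS and with CTX, each of 5 libraries from days 1 to 5. Days stood in for replicates, and nothing in the labels says that they were separate cultures, so the p-values measure the spread between these libraries.

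TGF-beta ligands are secreted in a latent form that is held in the matrix by latent TGF-beta binding proteins and freed by integrins. An active ligand binds the type II receptor, which recruits and phosphorylates the type I receptor, and SMAD proteins then carry the signal to the nucleus. In epithelial cells the pathway restrains proliferation, and in carcinomas it is known for its part in epithelial-to-mesenchymal transition and in the making of matrix. SMAD7 and SKIL are induced by the pathway and act back on it as inhibitors.

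Total estimated counts ran from 28508758 to 80727478 per library. Levels are given as CPM, each count set against the total of its library and scaled by TMM. The lines carried squamous genes, although KRT5 reached at most 14.6 CPM and KRT14 at most 12.5 CPM in SCC6. Of 6 genes of EGFR-ERK output, 5 fell with CTX in SCC1, 5 in SCC6 and 6 in SCC25. EGFR itself rose in SCC1 (log2 fold change 0.58, edgeR, adjusted p 5.21e-05), with 0.09 in SCC6 and 0.09 in SCC25 (adjusted p 0.46 and 0.15). Flow cells, read from the sample titles, were not balanced: in SCC1, PBS of days 1 to 4 ran on one flow cell and PBS of day 5 with all CTX libraries on another. In SCC6, only PBS of day 1 was apart from the other PBS libraries, and CTX of days 4 and 5 had a flow cell of their own. In SCC25, all PBS and CTX of days 1 and 2 shared a flow cell and CTX of days 3 to 5 had another. Within a line, a fit of CTX against PBS with flow cell thus sets the treatments against each other only on the flow cell they share. That is PBS of day 5 against all CTX in SCC1, and PBS against CTX of days 1 and 2 in SCC25. For SCC6 it is PBS of days 2 to 5 against CTX libraries 2a, 2b and day 3. Summed fibroblast markers (8 genes) were higher with CTX in all lines, from 21.0 to 32.9 CPM with PBS against 50.1 to 146 with CTX in SCC1, from 2.97 to 6.67 against 9.05 to 115 in SCC6, and from 148 to 197 against 255 to 407 in SCC25. COL1A1 and COL1A2 made up most of it in SCC1, COL1A1 and COL3A1 in SCC6, and collagens with LUM in SCC25. PDGFRA stayed at or under 1.68 CPM and THY1 at or under 3.26 CPM in all libraries. Of 5 leukocyte markers, only CD68 was above 0.302 CPM in any library, with 17.3 to 48.0 CPM with PBS against 6.33 to 9.49 with CTX in SCC1, 16.6 to 32.1 against 3.74 to 7.12 in SCC6, and 165 to 231 against 145 to 174 in SCC25. The summed squamous list also moved in SCC1, from 2446 to 3736 CPM with PBS to 7307 to 11209 CPM with CTX. Keratins carried that sum. CDH1 was also higher, from 101 to 141 CPM with PBS against 183 to 248 with CTX, as was DSP, from 696 to 851 against 983 to 1375. TP63 ran from 96.6 to 141 CPM with PBS and from 134 to 173 with CTX. In contrast, EPCAM went from 216 to 299 CPM with PBS to 124 to 181 with CTX and ITGA6 from 382 to 451 to 299 to 330. In bulk RNA, fewer cells of a type and less RNA per cell cannot be told apart.

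The windows before the RefSeq start of TGFB2 and SKIL are shown because both genes rose in SCC1 and SCC6 and each has a single start in the RefSeq promoter table. Each run is the 250 bases before the RefSeq start, 5′ to 3′ on the plus strand of GRCh37, and it was matched to that build at chr1:218518428-218518677 for TGFB2 and chr3:170075253-170075502 for SKIL. The SKIL window lies inside the span of the gene in the annotation used for its position here, whose first start is further upstream than the RefSeq start. Capitals mark the motifs found.
TGFB2: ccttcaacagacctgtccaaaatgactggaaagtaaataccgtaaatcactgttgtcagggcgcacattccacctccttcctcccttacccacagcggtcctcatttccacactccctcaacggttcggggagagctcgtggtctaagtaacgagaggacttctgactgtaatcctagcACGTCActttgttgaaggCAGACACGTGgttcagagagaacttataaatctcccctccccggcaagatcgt
SKIL: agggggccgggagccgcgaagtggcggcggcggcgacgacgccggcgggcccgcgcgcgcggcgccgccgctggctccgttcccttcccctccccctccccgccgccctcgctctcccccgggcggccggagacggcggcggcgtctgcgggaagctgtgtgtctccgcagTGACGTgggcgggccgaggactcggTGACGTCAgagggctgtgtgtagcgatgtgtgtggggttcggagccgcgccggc
On both strands, the search was for the E-box CACGTG, the cyclic AMP response element (CRE) TGACGTCA, its core TGACGT, the SMAD box CAGACA, the palindromic SMAD element GTCTAGAC and the AP-1 site TGANTCA. The TGFB2 window held a CRE core, read as ACGTCA, and a SMAD box that shares its last letters with an E-box. The SKIL window held a CRE core and, nearer the start, the whole CRE. Of 35116 windows of this length, 6.34% held the E-box, 1.65% the CRE, 7.1% the CRE core and 13.6% the SMAD box. Neither window held the palindromic SMAD element (0.182% of windows) or the AP-1 site (6.57%), which says only that these letters are not there.

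Across the 10 genes, the changes under CTX differed between the lines in size and, for TGFBR3, in direction. In the quasi-likelihood test of edgeR, with p-values adjusted over all genes by Benjamini-Hochberg, 7 changed in SCC1, 5 of them higher and 2 lower. Of all genes tested in SCC1, 44.8% changed, 22.7% higher and 22.1% lower. In SCC6, 7 changed, 6 higher and 1 lower, where 30.1% of all genes changed, 15.6% higher and 14.6% lower. In SCC25, 2 changed, 1 in each direction, where 18.3% of all genes changed, 8.8% higher and 9.5% lower. Their median log2 fold change was 0.41 in SCC1, 0.63 in SCC6 and -0.01 in SCC25, and that of all genes was 0.02, 0.00 and 0.01. TGFB2 rose and TGFBR3 changed in all 3 lines. SKIL, SMAD7 and TGFBR1 rose in SCC1 and SCC6, TGFB1 and TGFBR2 fell in SCC1, TGFBI and LTBP2 rose in SCC6, and TGFB3 passed the test in none. The size of the change differed between lines for 9 of the 10 genes, TGFB3 being the exception, where it differed for 26.1% of all genes. Between SCC6 and SCC1 it differed for 6 (19.3% of all genes), between SCC25 and SCC1 for 4 (8.52%) and between SCC25 and SCC6 for 6 (17.5%). A covariate for flow cell gave 5 members called in SCC1 (23.3% of all genes), 8 in SCC6 (30.6%), 2 in SCC25 (7.42%) and 8 for the difference between lines (14.4%). Day as a block gave 8 in SCC1 (47.1%), 9 in SCC6 (45.8%) and 2 in SCC25 (26.8%). The ranges of the PBS and CTX libraries did not overlap for 7 genes in SCC1 (31.3% of all genes), 5 in SCC6 (19.1%) and 2 in SCC25 (14.7%).

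**Figure D1:**
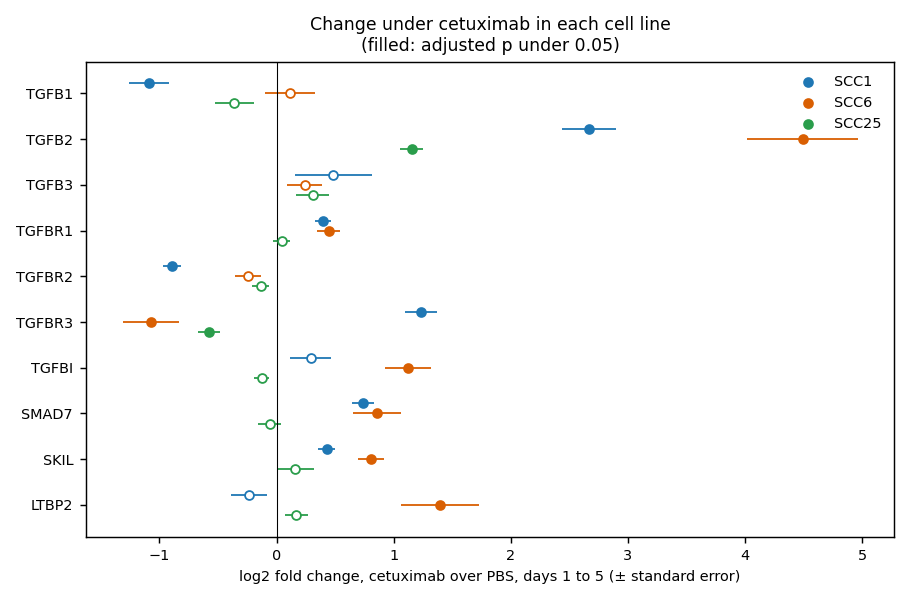
Log2 fold change of CTX over PBS (horizontal axis) of each of the 10 genes (vertical axis) in SCC1, SCC6 and SCC25, with bars of 1 standard error, over 5 PBS and 5 CTX libraries per line. Filled points passed the test at an adjusted p under 0.05. TGFB2 lies to the right in all lines, at 2.67, 4.49 and 1.16, while TGFBR3 lies at 1.23 in SCC1 and at -1.07 and -0.57 in SCC6 and SCC25.

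TGFB2, the ligand gene at chromosome 1, 218518678 to 218617961 (GRCh37, plus strand), had the largest change of the 10 genes in every line. In SCC1, PBS libraries of days 1 to 5 held 3.16, 2.00, 2.06, 1.71 and 2.50 CPM, and CTX libraries 9.13, 10.3, 16.5, 18.7 and 17.5 CPM. Every CTX library was above every PBS library, and the CTX libraries of days 3 to 5 were the highest. The log2 fold change was 2.67 ± 0.23 (SE), a 6.36-fold higher level, with an adjusted p of 3.65e-06 by edgeR. In SCC6, PBS libraries rose over days 1 to 5 through 1.87, 3.15, 3.98, 6.77 and 10.9 CPM, and the CTX libraries 2a, 2b and days 3, 4 and 5 held 99.7, 51.0, 161, 127 and 167 CPM. The ranges were far apart, although PBS itself climbed with the days. CTX libraries stood between 15.3 and 40.5 times above PBS of the same day, and the log2 fold change was 4.49 ± 0.47 (edgeR, adjusted p 5.63e-05). SCC25 held far more TGFB2 without drug, with 39.9, 40.2, 47.2, 48.7 and 40.1 CPM in PBS and 80.7, 83.4, 105, 109 and 106 CPM in CTX. Again no library of one treatment reached the other, with a log2 fold change of 1.16 ± 0.10 (edgeR, adjusted p 4.36e-05). Fitted with flow cell, and so only on the flow cell both treatments share, the log2 fold changes were 2.54, 4.05 and 0.93. Those of SCC6 and SCC25 still passed, on CTX libraries 2a, 2b and day 3 and on CTX of days 1 and 2. That of SCC1 rests on PBS of day 5 alone. The change was larger in SCC6 than in SCC1 by 1.85 ± 0.45 on the log2 scale, and the SCC25 change less that of SCC6 was -3.35 ± 0.43 (edgeR, adjusted p 0.0036 and 2.42e-06). Fitted with flow cell, the former gave 1.54 with an adjusted p of 0.13. The SCC25 change less that of SCC1 was -1.499 ± 0.43 (edgeR, adjusted p 0.026), and this call was lost with flow cell as a covariate (-1.60, adjusted p 0.19) and without any one of SCC1 PBS of day 2, 3 or 4 or SCC1 CTX of day 4 or 5 (-1.46, -1.47, -1.41, -1.39 and -1.42, adjusted p from 0.050 to 0.060).

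TGFB2 overlaps TGFB2-AS1 on the other strand and TGFB2-OT1 on its own strand. TGFB2-AS1 held 1 to 4 counts with PBS and 20 to 201 with CTX in SCC6, 1 to 5 and 8 to 21 in SCC1, and 49 to 73 and 119 to 151 in SCC25, never more than 5.62% of the count of TGFB2 in the same library. TGFB2-OT1 held 0 to 71.4 counts, at most 7.30% of the count of TGFB2, in SCC1 with CTX. These counts were looked at after the rise of TGFB2 had been seen. The library kit keeps strand, but how the counting used it is not given in the sources used here. How far reads of the gene and of its antisense partner were kept apart is therefore not known.

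TGFB1, the ligand most abundant without drug, lies at chromosome 19, 41807492 to 41859827 (minus strand), and overlaps HNRNPUL1, CCDC97 and TMEM91 on the other strand. In SCC1 it held 54.8, 81.8, 90.3, 88.9 and 44.5 CPM in PBS over days 1 to 5 and 29.9, 35.4, 34.6, 32.6 and 35.5 CPM in CTX. All CTX libraries were below all PBS libraries, and the log2 fold change was -1.09 ± 0.17 (edgeR, adjusted p 0.00024). The lowest PBS library, day 5, is the one that shared a flow cell with the CTX libraries, and with flow cell as a covariate the log2 fold change was -0.39 with an adjusted p of 0.17. In SCC6, PBS held 70.2, 37.7, 35.3, 34.1 and 33.8 CPM and CTX 41.7, 39.1, 40.3, 61.3 and 49.5 CPM. PBS of day 1 lay above all CTX libraries and the other PBS libraries below all of them, so the ranges overlapped, with a log2 fold change of 0.12 ± 0.21 (edgeR, adjusted p 0.72). With day as a block it was 0.38 (adjusted p 0.038), and without PBS of day 1 it was 0.38 (adjusted p 0.046). The block too takes PBS of day 1 out of the contrast, since no CTX library of SCC6 carries that day. In SCC25, PBS held 77.6, 84.0, 81.2, 84.7 and 100.04 CPM and CTX 78.0, 87.2, 39.9, 65.2 and 63.5 CPM. The CTX libraries on the flow cell of PBS lay within the PBS range and those of days 3 to 5 below it, and the change of -0.36 ± 0.17 did not pass (edgeR, adjusted p 0.15). The change differed between SCC6 and SCC1 by 1.24 ± 0.29 (edgeR, adjusted p 0.0023), and with flow cell as a covariate by 0.60 (adjusted p 0.13).

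TGFB3, at chromosome 14, 76424440 to 76449354 (minus strand), was the least abundant ligand. It ran from 0.315 to 0.891 CPM with PBS and from 0.301 to 0.908 CPM with CTX in SCC1, from 1.70 to 2.32 and from 2.15 to 2.65 CPM in SCC6, and from 2.69 to 3.85 and from 3.29 to 4.50 CPM in SCC25. The ranges overlapped in each line. The log2 fold changes of 0.48 ± 0.33, 0.24 ± 0.15 and 0.31 ± 0.14 did not pass (edgeR, adjusted p 0.25, 0.26 and 0.14), and their 95% intervals ran from -0.16 to 1.13, from -0.06 to 0.53 and from 0.04 to 0.58, the last without adjustment. In SCC1 the gene rested on 12 to 37 counts a library.

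Set against each other per kilobase of exon, the summed level of the ligands shifted towards TGFB2. TGFB2 made up 1.02% to 2.99% of the summed CPM per kilobase of the ligand genes in PBS libraries of SCC1 and 13.4% to 23.3% in CTX libraries. The share went from between 1.39% and 14.3% to between 40.3% and 67.6% in SCC6, and from between 17.5% and 23.5% to between 33.3% and 57.4% in SCC25. In SCC6 with CTX, mean TGFB2 of 20.0 ± 7.9 CPM per kilobase (SD, n = 5) stood beside 14.2 ± 2.8 for TGFB1. With PBS the same values were 0.88 ± 0.59 and 12.9 ± 4.8.

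**Figure D2:**
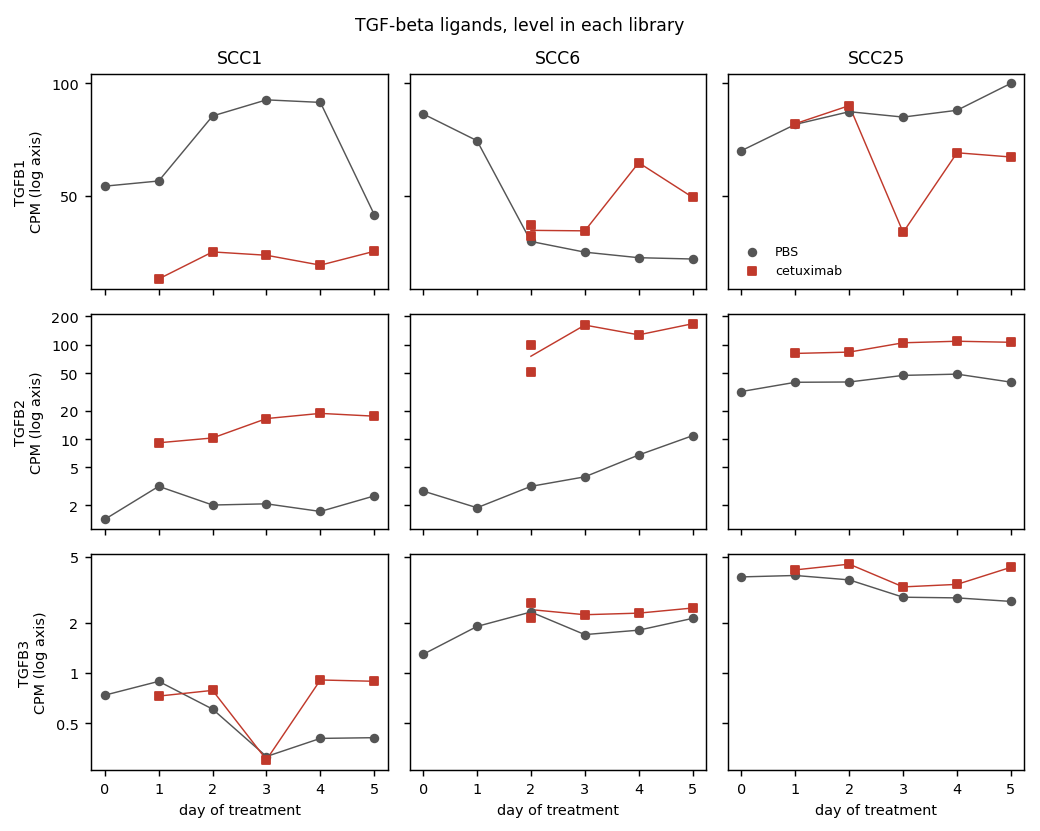
CPM on a log axis (vertical) of TGFB1, TGFB2 and TGFB3 against day of treatment (horizontal) in SCC1, SCC6 and SCC25, with 1 point per library and lines through the mean of a day. TGFB2 with CTX (squares) lies above PBS (circles) in all lines, whereas TGFB1 with CTX lies below PBS in SCC1 and the TGFB3 ranges overlap.

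TGFBR1, the type I receptor kinase, lies at chromosome 9, 101866320 to 101916474 (plus strand). SCC1 PBS libraries held 24.3, 20.5, 21.8, 20.7 and 22.2 CPM and CTX libraries 30.02, 29.1, 30.2, 28.8 and 25.4 CPM. SCC6 PBS libraries held 95.6, 114, 107, 111 and 117 CPM and CTX libraries 150.1, 141, 179, 129 and 152 CPM. In neither line did the ranges overlap, and the log2 fold changes were 0.40 ± 0.07 in SCC1 and 0.45 ± 0.10 in SCC6 (edgeR, adjusted p 0.00046 and 0.0056). SCC25 ran from 97.7 to 112 CPM with PBS and from 99.4 to 129 CPM with CTX, with overlap and a change of 0.05 ± 0.07 (edgeR, adjusted p 0.71). The SCC25 change less that of SCC6 was -0.41 ± 0.11 (edgeR, adjusted p 0.012), and the changes of SCC1 and SCC6 differed by 0.07, with an interval from -0.15 to 0.30.

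TGFBR2, the type II receptor that binds the ligand first, lies at chromosome 3, 30648093 to 30735634 (plus strand). In SCC1 it held 149.7, 169.9, 183, 187 and 179 CPM in PBS and 81.6, 86.05, 98.3, 101 and 97.5 CPM in CTX. Every CTX library was well below every PBS library, PBS of day 5 on the shared flow cell included, and the log2 fold change was -0.89 ± 0.07 (edgeR, adjusted p 3.01e-06). In SCC6, PBS held 61.6, 73.1, 87.1, 82.6 and 80.7 CPM and CTX 70.6, 71.8, 67.7, 59.7 and 59.0 CPM. Only PBS of day 1 was inside the CTX range, and the change of -0.25 ± 0.11 did not pass (edgeR, adjusted p 0.11). It passed with day as a block (-0.33, adjusted p 0.018), with flow cell as a covariate (-0.22, adjusted p 0.043) and without PBS of day 1 (-0.32, adjusted p 0.020). These fits are not separate checks. Each takes PBS of day 1 out of the contrast, since no CTX library of SCC6 shares its day or its flow cell. In SCC25, PBS ran from 100.2 to 136 CPM and CTX from 104 to 111 CPM, all CTX libraries lying inside the PBS range, with a change of -0.13 ± 0.07 (edgeR, adjusted p 0.21). The fall in SCC1 was larger than in SCC6 by 0.67 ± 0.13 and than in SCC25 by 0.77 ± 0.13 (edgeR, adjusted p 0.00022 and 9.26e-05). The receptors thus moved in opposite directions in SCC1. Per kilobase, TGFBR2 there went from 25.4 ± 2.2 to 13.6 ± 1.2 (SD, n = 5) and TGFBR1 from 2.74 ± 0.19 to 3.59 ± 0.24.

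TGFBR3, or betaglycan, a co-receptor that presents ligand and is known above all for TGF-beta2, lies at chromosome 1, 92145900 to 92371892 (minus strand). It rose in SCC1, from 5.14, 4.63, 4.39, 4.84 and 4.82 CPM in PBS to 8.51, 10.2, 10.6, 11.3 and 15.1 CPM in CTX. It fell in SCC6, from 8.86, 11.3, 10.3, 8.98 and 10.0 CPM in PBS to 6.11, 7.28, 4.45, 3.18 and 2.90 CPM in CTX. The ranges were apart in both lines, and in SCC6 the CTX libraries of days 4 and 5 were the lowest. In SCC25 it fell from 11.005, 9.57, 11.8, 9.34 and 8.83 CPM in PBS to 6.25, 6.62, 7.62, 6.89 and 6.70 CPM in CTX, again without overlap. The log2 fold changes were 1.23 ± 0.14, -1.07 ± 0.24 and -0.57 ± 0.10 (edgeR, adjusted p 1.89e-05, 0.0064 and 0.0020). With flow cell as a covariate they were 1.22, -0.79 and -0.65, the first resting on PBS of day 5 alone and the others passing. The SCC6 change less that of SCC1 was -2.29 ± 0.25, and the SCC25 change less that of SCC1 was -1.79 ± 0.25 (edgeR, adjusted p 9.59e-08 and 1.01e-05). These contrasts test whether the changes differ, and the opposite directions come from the fits within each line.

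**Figure D3:**
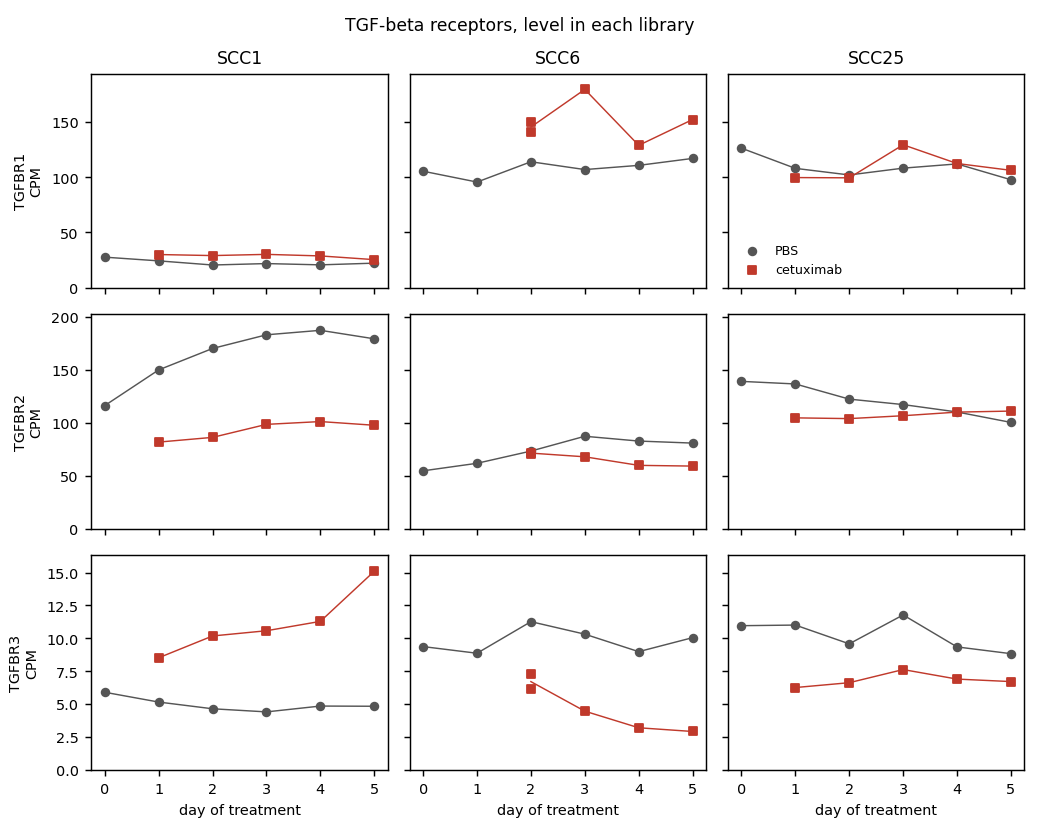
CPM (vertical) of TGFBR1, TGFBR2 and TGFBR3 against day of treatment (horizontal) in SCC1, SCC6 and SCC25, with 1 point per library. In SCC1, CTX (squares) lies below PBS (circles) for TGFBR2 and above it for TGFBR3, while in SCC6 and SCC25 TGFBR3 with CTX lies below PBS.

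TGFBI, a secreted matrix protein named for its induction by TGF-beta, lies at chromosome 5, 135364677 to 135399507 (plus strand) and was the most abundant of the 10 transcripts per kilobase. In SCC6 it held 1329.9, 1073, 866, 717 and 561 CPM in PBS and 1888.5, 2054, 2041, 2036 and 2006 CPM in CTX. PBS fell day by day while all CTX libraries stayed near the same level above it. The log2 fold change was 1.12 ± 0.19 (edgeR, adjusted p 0.0014). In SCC1, PBS held 1832, 1259, 1060.5, 947 and 1074 CPM and CTX 1947, 1529.6, 1491, 1395 and 1165 CPM. Each CTX library was above PBS of its own day, but CTX of days 2 to 5 lay below PBS of day 1, so the ranges overlapped, and the change of 0.29 ± 0.17 did not pass (edgeR, adjusted p 0.19). It passed with day as a block (0.32, adjusted p 0.010) and without PBS of day 1 (0.48, adjusted p 0.0085). SCC25 ran from 2175 to 2302 CPM with PBS and from 1818 to 2348 CPM with CTX, with a change of -0.13 ± 0.07 (edgeR, adjusted p 0.20). The SCC6 change was above that of SCC1 by 0.85 ± 0.24 and the SCC25 change less that of SCC6 was -1.26 ± 0.24 (edgeR, adjusted p 0.0099 and 0.00035), the former falling short with flow cell as a covariate (0.82, adjusted p 0.085).

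SMAD7, the inhibitory SMAD that blocks the activated type I receptor, lies at chromosome 18, 46446223 to 46477335 (minus strand). In SCC1, PBS held 8.42, 7.21, 7.71, 7.44 and 8.52 CPM and CTX 11.3, 12.3, 12.9, 13.1 and 15.6 CPM. In SCC6, PBS held 25.0, 21.4, 19.7, 16.2 and 15.6 CPM and CTX 29.0, 23.3, 34.0, 45.8 and 47.8 CPM. The ranges were apart in SCC1, whereas in SCC6 library 2b lay below PBS of day 1 and the CTX libraries of days 4 and 5 stood highest. SMAD7 rose by 0.74 ± 0.10 in SCC1 and 0.86 ± 0.21 in SCC6 on the log2 scale (edgeR, adjusted p 5.93e-05 and 0.0085). In SCC25, PBS ran from 12.2 to 17.3 CPM and CTX from 12.3 to 15.9 CPM, fully overlapping, with a change of -0.06 ± 0.10 (edgeR, adjusted p 0.72). The SCC25 change less those of SCC1 and SCC6 was -0.79 ± 0.21 and -0.93 ± 0.21 (edgeR, adjusted p 0.017 and 0.0024), and with flow cell as a covariate the former gave -0.61 with an adjusted p of 0.18.

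SKIL encodes SnoN, a repressor that binds SMAD complexes, and lies at chromosome 3, 170075130 to 170114623 (plus strand). SCC6 held 205, 289, 255, 237 and 263 CPM in PBS and 420, 392.3, 498, 400.3 and 503 CPM in CTX. SCC1 held 109, 103, 99.1, 98.7 and 112 CPM in PBS and 122, 142, 154, 149 and 131 CPM in CTX. Both lines had every CTX library above every PBS library, with log2 fold changes of 0.81 ± 0.11 and 0.43 ± 0.07 (edgeR, adjusted p 0.00035 and 0.00032). Fitted with flow cell, the SCC1 change was 0.34 with an adjusted p of 0.068. SCC25 ran from 77.6 to 112 CPM with PBS and from 81.0 to 133 CPM with CTX, and in both treatments days 1 and 2 were lower than days 3 to 5, with a change of 0.16 ± 0.16 (edgeR, adjusted p 0.52). The SCC25 change less that of SCC6 was -0.66 ± 0.18 (edgeR, adjusted p 0.011), and the SCC6 and SCC1 changes differed by 0.41 ± 0.18, which did not pass (edgeR, adjusted p 0.12).

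LTBP2, a microfibril protein of the latent TGF-beta binding protein family that itself does not bind latent TGF-beta, lies at chromosome 14, 74964886 to 75079081 (minus strand). In SCC6, PBS held 224, 121, 86.2, 73.3 and 65.3 CPM and CTX 251, 191, 276, 416 and 384 CPM. PBS fell with the days and CTX of days 4 and 5 was highest, and PBS of day 1 reached above library 2b. The log2 fold change was 1.39 ± 0.33 (edgeR, adjusted p 0.0085). In SCC1, PBS held 213, 284, 227, 191 and 133 CPM and CTX 154, 194, 187, 177 and 169.9 CPM, with PBS both highest and lowest. The change was -0.24 ± 0.15 (edgeR, adjusted p 0.23), it was -0.37 without PBS of day 5 (adjusted p 0.012), and with flow cell as a covariate its sign turned (0.43, adjusted p 0.11). In SCC25, PBS ran from 156 to 199 CPM and CTX from 157 to 227 CPM, with a change of 0.17 ± 0.10 (edgeR, adjusted p 0.27) that passed without CTX of day 3 (0.25, adjusted p 0.044). The SCC6 change was above that of SCC1 by 1.66 ± 0.34 and the SCC25 change less that of SCC6 was -1.24 ± 0.34 (edgeR, adjusted p 0.00063 and 0.010).

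The genes that rose in SCC6 rose in the same libraries in which the summed fibroblast markers did. In SCC6, PDGFRA and THY1 stayed at or under 0.107 CPM in every library, and PDGFRB went from at most 0.133 CPM with PBS to between 0.567 and 8.38 CPM with CTX. The part of these markers in the result was not tested.

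**Figure D4:**
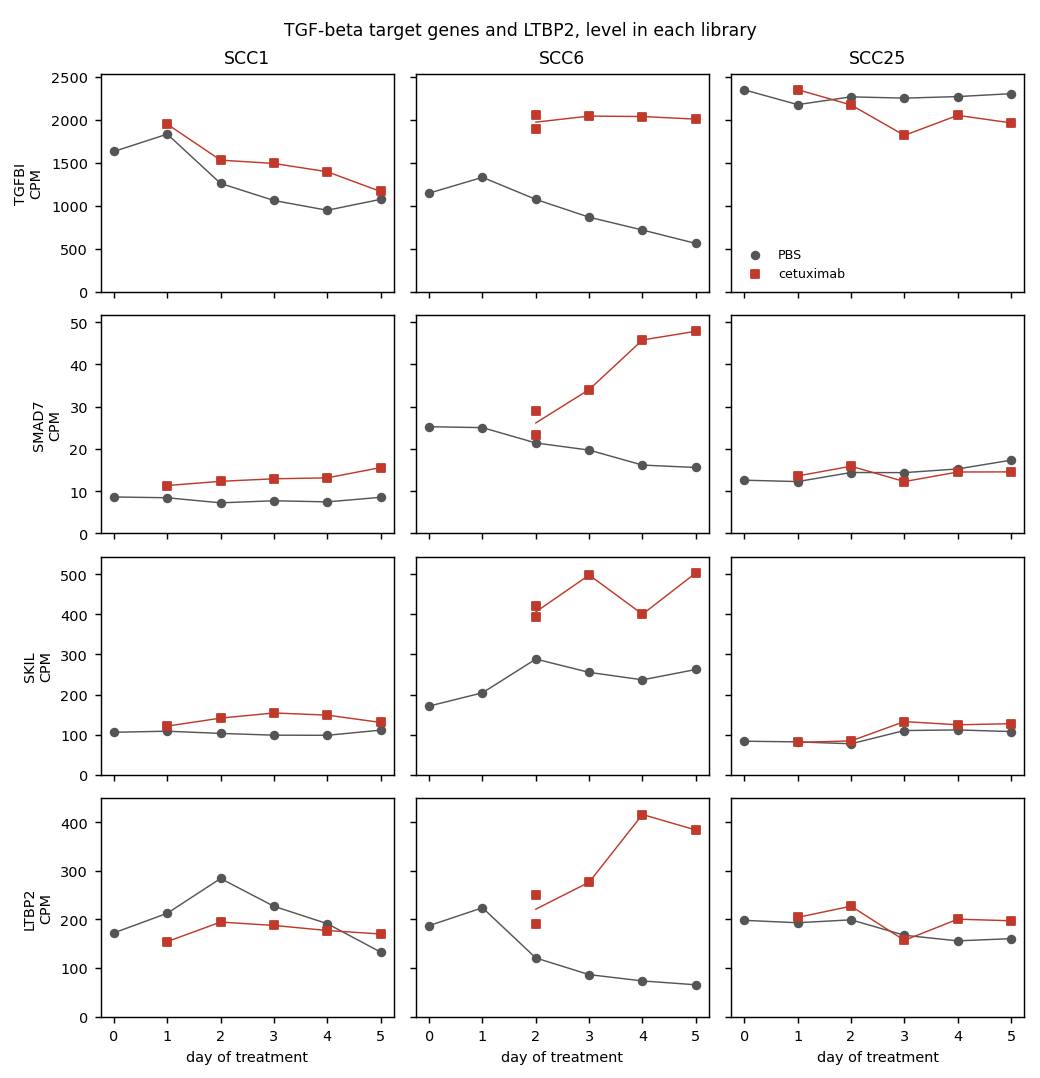
CPM (vertical) of TGFBI, SMAD7, SKIL and LTBP2 against day of treatment (horizontal) in SCC1, SCC6 and SCC25, with 1 point per library. In SCC6, PBS (circles) of TGFBI falls from 1329.9 to 561 CPM and that of LTBP2 from 224 to 65.3 CPM over days 1 to 5, while CTX (squares) stays above PBS of the same day.

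The lines also differed without drug. PBS levels differed between lines for all 10 genes, where 85.9% of all genes differed (edgeR, over days 1 to 5). By pairs, 10 differed between SCC6 and SCC1 (66.6% of all genes), 7 between SCC25 and SCC1 (66.5%) and 8 between SCC25 and SCC6 (69.9%). For TGFB2 the order was SCC1 at 2.28 ± 0.56, SCC6 at 5.33 ± 3.57 and SCC25 at 43.2 ± 4.4 CPM (SD, n = 5), and each neighbour differed by the test (edgeR, adjusted p 0.0023 and 1.81e-09). For TGFB3 it was SCC1 at 0.525 ± 0.230, SCC6 at 1.97 ± 0.25 and SCC25 at 3.17 ± 0.53 CPM, each step passing. SCC25 was thus highest for both. For TGFB1 it was SCC6 at 42.2 ± 15.7, SCC1 at 72.1 ± 21.0 and SCC25 at 85.5 ± 8.6 CPM, and SCC1 and SCC25 did not differ beyond their spread (edgeR, adjusted p 0.29). For TGFBR1, SCC1 at 21.9 ± 1.5 CPM was far below SCC25 at 106 ± 6 and SCC6 at 109 ± 8 CPM, which did not differ from each other beyond their spread (edgeR, adjusted p 0.63). TGFBR2 ran the other way, from 77.01 ± 9.98 CPM in SCC6 through 117 ± 14 in SCC25 to 174 ± 15 in SCC1, each step passing. TGFBR3 was lowest in SCC1 at 4.76 ± 0.28 CPM, with 9.89 ± 1.00 in SCC6 and 10.1 ± 1.2 in SCC25, which did not differ beyond their spread (edgeR, adjusted p 0.89). SCC1, the line with the lowest TGFBR1 and TGFBR3, thus held the highest TGFBR2. SKIL in SCC6 at 249.6 ± 31.3 CPM stood above SCC25 at 98.1 ± 16.7 and SCC1 at 104 ± 6 CPM, which did not differ beyond their spread (edgeR, adjusted p 0.55). SMAD7 rose from 7.86 ± 0.58 CPM in SCC1 through 14.7 ± 1.8 in SCC25 to 19.6 ± 3.9 in SCC6, and TGFBI from 909.6 ± 301 CPM in SCC6 through 1234 ± 352 in SCC1 to 2252 ± 47 in SCC25, each step passing. LTBP2 was lowest in SCC6 at 114 ± 65 CPM, and SCC25 at 175 ± 20 and SCC1 at 209 ± 55 CPM did not differ beyond their spread (edgeR, adjusted p 0.34). Line and flow cell overlap in part, and their shares in these levels cannot be told apart.

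PBS levels also moved with days in culture. In SCC6, 6 of the 10 genes had a trend over days 0 to 5 by edgeR, where 32.7% of all genes did. TGFB2 gained 0.43 ± 0.07 and TGFBR2 0.11 ± 0.03 per day on the log2 scale, and LTBP2 fell with -0.39 ± 0.05, TGFB1 with -0.29 ± 0.05, TGFBI with -0.25 ± 0.04 and SMAD7 with -0.17 ± 0.03 per day (edgeR, adjusted p from 0.0016 to 0.024). LTBP2, TGFBI and SMAD7 therefore went down in untreated SCC6 and were above it with CTX. In SCC6, days 0 and 1 of PBS were on another flow cell than days 2 to 5, and over days 1 to 5 alone 4 of the genes kept a trend (10.9% of all genes). In SCC25, 5 genes had a trend (10.7% of all genes), TGFB1, SMAD7 and SKIL upwards by 0.10, 0.10 and 0.11 per day and TGFBR2 and LTBP2 downwards, with -0.09 and -0.07. Over days 1 to 5 alone, 2 were called, TGFBR2 and SKIL (5.54% of all genes). Leaving out day 1 or day 5 also gave 2 (6.77% and 6.11% of all genes), and leaving out day 4 gave 3 (9.53%). In SCC1, edgeR called 0 of the 10 (2.49% of all genes), with 4 at an unadjusted p under 0.05 (20.9% of all genes), and DESeq2 called 2, TGFBR2 and TGFBI (10.2% of all genes). Without day 5, edgeR called 3 (8.38% of all genes).

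Most of the calls were already made on days 1 to 3. In SCC1, 8 of the 10 genes changed on days 1 to 3 (29.6% of all genes) and 7 on days 4 and 5 (29.9%), LTBP2 passing on days 1 to 3 with -0.45 ± 0.14 (edgeR, adjusted p 0.038) and standing at 0.11 ± 0.18 on days 4 and 5. Without PBS of day 4 or CTX of day 4, 4 were called on days 4 and 5. In SCC6, 5 changed on days 1 to 3 (20.3%) and 7 on days 4 and 5 (37.8%). The earlier 5 were TGFB2, TGFBR1, TGFBR3, TGFBI and SKIL, and on the later days TGFBR1 was not called while TGFBR2, SMAD7 and LTBP2 were. In SCC25, TGFB2 and TGFBR3 changed on days 1 to 3 (7.84%) and TGFB2 on days 4 and 5 (2.71%), where leaving out CTX of day 3 gave 5. With flow cell as a covariate, 0 genes were called on days 1 to 3 in SCC1, where no flow cell held both treatments, and 4 on days 4 and 5. In SCC25 the same covariate gave 4 on days 4 and 5, where no flow cell held both treatments either. For SCC6 this fit could not be made, since CTX of days 4 and 5 had a flow cell of their own. For the counts by period with flow cell or with a library left out, the share of all genes is not given here. Those counts can therefore not be set against all genes.

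Whether the change itself differed between the periods was tested apart, and edgeR called 0 of the 10 in each line and 0% of all genes. In SCC6, 5 had an unadjusted p under 0.05, as had 29.4% of all genes. LTBP2 was 1.83 ± 0.46 higher on the log2 scale on the later days (0.69 against 2.52), SMAD7 1.21 ± 0.24 (0.35 against 1.55) and TGFBI 0.82 ± 0.24 (0.83 against 1.65). Their adjusted p by edgeR was 0.093, 0.093 and 0.094, and DESeq2 called these 3 and TGFBR3, 4 in all, and 21.5% of all genes. Later CTX libraries of SCC6 had a flow cell of their own, so period and flow cell cannot be told apart in these differences. Without PBS of day 1 or of day 3, edgeR called the same 3, and 7.39% and 5.04% of all genes. In SCC1, 1 gene, LTBP2, had an unadjusted p under 0.05 and 2 had one by DESeq2, as had 7.42% and 6.08% of all genes. In SCC25 1 did by either, TGFBR2, against 2.89% and 1.89% of all genes. DESeq2 called 0 of the 10 in SCC1 and SCC25, and 0.158% and 0.0145% of all genes.

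Beyond the 10 genes, 49 other genes of the pathway were followed by role. In SCC1, 30 of 46 tested changed, 10 higher and 20 lower, with a median log2 fold change of -0.14. In SCC6, 27 of 46 changed, 17 higher and 10 lower, with a median of 0.25, and in SCC25, 20 of 48, 7 higher and 13 lower, with a median of -0.17. The shares of all genes that changed are those given above. Of 9 genes of latency and activation tested in SCC6, 5 were called, all higher, and 4 did not pass. With day as a block ITGB8 was called there too, lower, at -0.51, and LTBP3, higher, at 0.84 (edgeR, adjusted p 0.0070 and 0.0068). Of 17 target genes, 13 changed in SCC6, 9 higher and 4 lower. In SCC1, 8 of the 18 target genes fell and 3 rose, and in SCC25 9 fell and 3 rose. Of the 14 SMAD genes and their regulators, 9 changed in SCC1, 3 higher and 6 lower, and 6 in SCC6, 2 higher and 4 lower. In SCC25, edgeR and DESeq2 called 0 of the 14, with 7 at an unadjusted p under 0.05 by edgeR and 6 by DESeq2, where 33.2% of all genes were by either.

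Of the list, 10 genes changed in all lines and 9 of them in the same direction. The share of all genes that changed in every line is not given here, so these counts cannot be set against it. The integrin subunits ITGAV and ITGB6, which together bind and activate latent TGF-beta, rose, ITGB6 by 1.10 ± 0.12 in SCC1, 1.75 ± 0.12 in SCC6 and 0.50 ± 0.09 in SCC25 on the log2 scale. The actin-binding genes TAGLN and TPM1 rose as well, TAGLN from 15.8 ± 1.5 to 275 ± 135 CPM in SCC6 (SD, n = 5), a log2 fold change of 4.10 ± 0.35, and TPM1 by 2.89 ± 0.19 there. The target genes ANGPTL4, HMGA2 and IL11 fell in all lines, as did STRAP, which binds the receptors. Several of these calls were lost with flow cell in the fit. In SCC1 they were ITGAV (0.48, edgeR, adjusted p 0.086), TAGLN (0.45, 0.30) and STRAP (-0.061, 0.68), and in SCC25 ITGAV (0.31, 0.13), ANGPTL4 (-0.59, 0.061), HMGA2 (-0.62, 0.073) and STRAP (-0.20, 0.077). In SCC1 the largest falls were ANGPTL4 at -3.43 ± 0.29, HMGA2 at -2.87 ± 0.19 and ADAM19 at -2.86 ± 0.19. In SCC6, the largest falls were ANGPTL4 at -1.74 ± 0.37, HMGA2 at -1.73 ± 0.35 and IL11 at -1.54 ± 0.20. In SCC25 they were IL11 at -1.17 ± 0.10, ADAM19 at -0.82 ± 0.13 and HMGA2 at -0.75 ± 0.15. LTBP1, which does tether the latent ligand, rose by 0.84 ± 0.24 in SCC1 and 0.92 ± 0.24 in SCC6 and fell in SCC25 (-0.50 ± 0.06). Its level in SCC1 was low, at a mean of 0.473 CPM with PBS and 0.841 CPM with CTX. Fitted with flow cell, both rises were lost, with 0.55 in SCC1 (edgeR, adjusted p 0.39) and 0.49 in SCC6 (0.058).

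The largest rises among genes at a mean log2 CPM of 0 or more were these. In SCC1 the integrin subunit ITGB8 rose by 1.92 ± 0.20, the cell-cycle inhibitor CDKN2B by 1.86 ± 0.12 and TPM1 by 1.37 ± 0.16. SMAD6, an inhibitory SMAD under that level in SCC1 and named after its values were seen, rose there by 4.58 ± 0.69, from 0.0644 to 1.56 CPM (edgeR, adjusted p 0.00017, and 0.0501 with flow cell). In SCC6 the collagen COL4A1 rose by 3.26 ± 0.45, from 51.0 ± 13.4 to 497 ± 345 CPM, after TAGLN and before TPM1. In SCC25 LRRC32, which displays latent TGF-beta on the cell surface, rose by 1.39 ± 0.26 to only 1.77 ± 0.66 CPM (adjusted p 0.074 by edgeR with flow cell), TAGLN by 1.19 ± 0.17 and CDKN2B by 0.73 ± 0.10. PMEPA1, an inhibitor induced by the pathway, rose by 0.99 ± 0.18 in SCC6 (edgeR, adjusted p 0.0019), with 0.00 ± 0.14 in SCC1 and 0.04 ± 0.12 in SCC25. With flow cell as a covariate, 18 of the list were called in SCC1 and 12 in SCC25, and with day as a block 31 in SCC25.

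**Figure D5:**
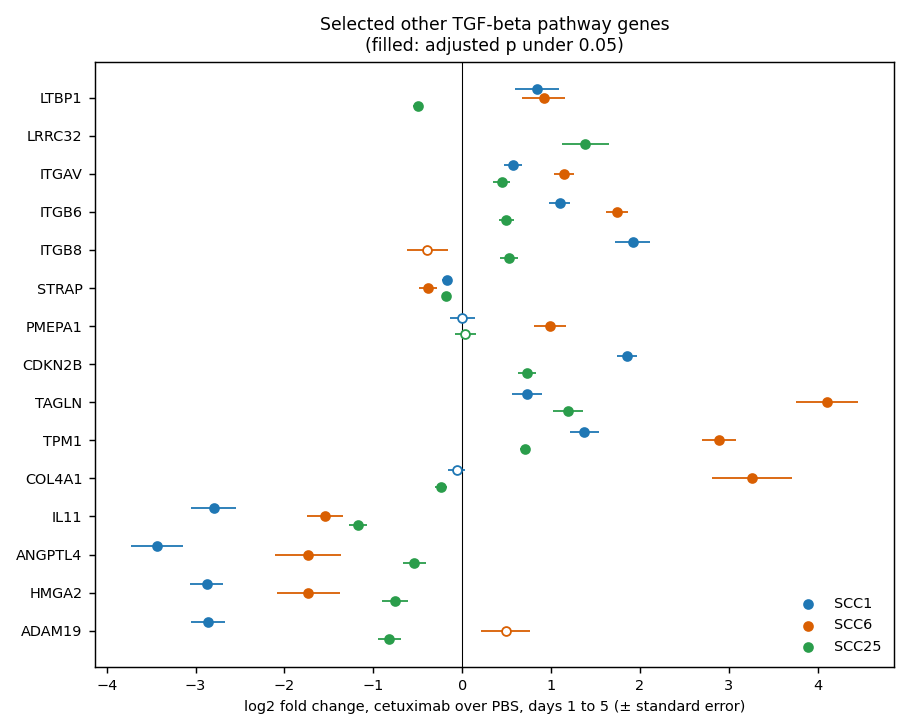
Log2 fold change of CTX over PBS (horizontal) of pathway genes named here (vertical) in SCC1, SCC6 and SCC25, with bars of 1 standard error, over 5 PBS and 5 CTX libraries per line. SMAD6 and LTBP3 are not drawn. Filled points passed the test at an adjusted p under 0.05, and a gene has no point in a line where it was not tested. TAGLN and TPM1 lie to the right and ANGPTL4, HMGA2 and IL11 to the left in all lines.

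As a description of which genes moved most like the members, log2 CPM was correlated over the 30 libraries of days 1 to 5 after the mean of each line was removed. The libraries share lines, flow cells and the treatment contrast, so any gene that responds to CTX can rank high. TGFB2 was most like SPECC1, NEDD9 and UTRN (Pearson r 0.99, 0.98 and 0.98), LTBP2 most like MARVELD1, CLSTN1 and MMP14 (0.97, 0.96 and 0.95) and SMAD7 most like BMP1, TMEM189 and ALDH4A1 (0.97, 0.96 and 0.95). TGFB1 was most like BCAR1, TWF2 and MESDC1 (0.96, 0.96 and 0.95), TGFBR2 like FUT8, CDC6 and DNMBP (0.95, 0.93 and 0.93), TGFBR1 like ZDHHC17, MEX3C and UBTD2 (0.94, 0.93 and 0.91) and SKIL like BAZ2B, ENAH and PDE5A (0.93, 0.91 and 0.91). TGFBR3 had SERINC5, IL1RN and AIM1 (0.91, 0.91 and 0.90), TGFBI had AFAP1L2, IGF1R and PRR5L (0.90, 0.89 and 0.88), and TGFB3, with few counts, had only ZNF304, RBM4B and RP11-379H18.1 (0.71, 0.70 and 0.68). Some pairs were much less alike within a single line. In SCC25, r was 0.39 for TGFBR3 with SERINC5, 0.47 for TGFBR2 with DNMBP and 0.49 for TGFB3 with ZNF304. It was 0.49 for TGFBI with PRR5L and 0.54 for LTBP2 with MMP14 in SCC1. Among the members, TGFB2 ran with SKIL and TGFBR1 (0.86 and 0.85) and TGFBR1 with SKIL (0.85), and TGFBR2 ran against SMAD7 (-0.73) and TGFBR3 against LTBP2 (-0.65).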

How the data were processed

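PolyA RNA of SCC1, SCC6 and SCC25 was sequenced, and the authors quantified reads with Salmon 0.8.2 (hg19/GRCh37, per the submitters' processing notes) and summarised transcripts to genes with tximport. The deposited values are estimated counts per gene symbol, of which 63.2% were whole numbers, and they were rounded here. Total counts ran from 28508758 to 80727478 per library (median 43002133), and precision is set by the 5 libraries a group. The members and gene lists were chosen with earlier results of these data known.

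Genes were filtered with filterByExpr, scaled by TMM and tested with the quasi-likelihood test of edgeR 4.0.16 (limma 3.58.1, R 4.3.3) in each line, CTX against PBS over days 1 to 5, and in 1 model of all lines for differences between lines. The threshold was an adjusted p of 0.05 over all genes. The methods name DESeq2 without a design, so DESeq2 1.42.0 was an alternative, as were its size factors, no filter, day 0 added, each library left out, flow cell as a covariate and day as a replicate block. Pairing comes from the labelled day. Same-day libraries correlated in their deviations from the group means at 0.11 to 0.38 in SCC1, 0.22 to 0.58 in SCC25, and -0.17 to 0.58 in SCC6. The scripts were tested on simulated data with 200 changed genes. Of these, a log2 change of 0.5 was recovered for 63% in SCC1, 0% in SCC6 and 52% in SCC25. A change of 1 was recovered for 95.5%, 74% and 95.5%, and a difference of periods of 1 for 65.5%, 30.5% and 47.5%. Among the genes called, 0% to 11.2% were false. A gene that was not called can thus still have changed. Named were all members, the 3 largest called rises and falls per line among the other pathway genes (mean log2 CPM 0 or more), PMEPA1, and the 3 genes most like each member (mean log2 CPM 3 or more). Some genes of the pathway list are not reported here by name. Gene positions are from GENCODE lifted to GRCh37, and promoter sequences from RefSeq matched to GRCh37. Plots were drawn with matplotlib 3.10.9.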

Additional observations from a re-analysis of the deposited data

Results flagged for a closer look

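In SCC6 with PBS, the TGFB1 level of day 1, 70.2 CPM, stood apart from the other 4 libraries, which lay between 33.8 and 37.7 CPM. It was the one library of that group on its flow cell over days 1 to 5. In SCC6 with CTX, the TGFBI level of library 2a, 1888.5 CPM, stood below the other 4 at 2006 to 2054 CPM. These were 2 of 60 groups of 5 libraries examined, and at the 0.05 level used, chance alone would mark about 3 of 60.

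The change under CTX differed between the lines for 9 genes by edgeR's quasi-likelihood test of the interaction. The adjusted p was 1.37e-07 for TGFBR3, 3.68e-06 for TGFB2, 3.50e-05 for TGFBR2, 0.00052 for TGFBI, 0.0011 for LTBP2, 0.0024 for SMAD7, 0.0055 for TGFB1, 0.015 for TGFBR1 and 0.020 for SKIL. With flow cell as a covariate, 8 of the 10 genes passed.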

How the results depend on the processing

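Counts of called genes, members or other pathway genes, moved by more than 1.5 times as follows. With flow cell as a covariate, SCC1 gave 0 on days 1 to 3 and 4 on days 4 and 5, SCC25 gave 4 on days 4 and 5, and the other pathway genes gave 18 in SCC1 and 12 in SCC25. For the difference of periods in SCC6, DESeq2 gave 4 (21.5% of all genes) and no filter 5 (8.78%). For the PBS trend in SCC1 they gave 2 (10.2%) and 1 (1.75%). The PBS trend in SCC25 over days 1 to 5 gave 2 (5.54%). With day as a replicate block, 31 other pathway genes were called in SCC25 (26.8% of all genes). The block moved the members called by less than that, to 8 in SCC1 (47.1%), 9 in SCC6 (45.8%) and 2 in SCC25 (26.8%). It added TGFBI in SCC1 and TGFB1 and TGFBR2 in SCC6, where it takes PBS of day 1 out of the contrast. No other call of a member in a line changed with the block.

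Leaving out 1 library gave 7 to 8 members called in SCC1 (38.6% to 45.4% of all genes), 7 to 9 in SCC6 (21.9% to 36.9%) and 2 to 3 in SCC25 (11.4% to 20.7%). It gave 9 to 9 for the difference between lines and 10 to 10 for the PBS level. On days 1 to 3 it gave 7 to 9, 5 to 7 and 2 to 3 in SCC1, SCC6 and SCC25, on days 4 and 5 it gave 4 to 7, 6 to 8 and 1 to 5, and for the difference of periods 0 to 0, 0 to 3 and 0 to 0. The PBS trend gave 0 to 3, 4 to 7 and 2 to 5 (0.128% to 8.38%, 10.9% to 40.4% and 5.54% to 11.5% of all genes). For the other pathway genes the counts were 29 to 32, 21 to 32 and 16 to 20. With both SCC6 CTX libraries of day 2 left out, a choice made after seeing the data, 7 members and 32 other genes were called. Of all genes, 35.8% were called in that fit.

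The sign turned in 9 cases, none of them called. With flow cell as a covariate the log2 fold change was 0.43 for LTBP2 in SCC1 and -0.083 for TGFBR1, 0.0064 for TGFBI, 0.0035 for SMAD7 and -0.24 for SKIL in SCC25. TGFB1 in SCC6 was -0.10 with day 0 added. Leaving out 1 library gave -0.0030 (without CTX of day 4) to 0.376 for TGFB1 in SCC6, and in SCC25 -0.011 (without CTX of day 3) to 0.092 for TGFBR1 and -0.109 to 0.021 (without PBS of day 5) for SMAD7. The cause was not tested. Of all values recomputed, 1036 kept their direction and side of the threshold. With 1 library a day and flow cells tied to treatment in SCC1, that covariate rests on PBS of day 5 alone.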
